A study of Homo sapiens with 14 samples.

Results

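AP3S1 encodes the small sigma subunit of AP-3, one of the adaptor complexes that select cargo proteins for transport vesicles. The mRNA levels of AP3S1 and of 8 other subunits of the clathrin-associated adaptor complexes (AP3S2, AP3B1, AP3D1 and AP3M1 of AP-3, AP1S1 and AP1B1 of AP-1, AP2S1 and AP2M1 of AP-2) were followed in the prostate cancer lines LNCaP, 22Rv1 and PC3. These 9 genes were found by symbol among 62703 genes in the count table. They were chosen by earlier results of the same libraries, in which AP3S1 stood out for its rise in 22Rv1. The effects of treatment on the 9 genes and their differences between the lines are therefore given as a description. Calls are counted, but no p-value is given for a single one of the 9. Of the 9, 8 had enough counts for the model across genes, which kept 7086 genes. AP3B1 did not, and its counts are given as they are.

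Adaptor complexes are assembled from 2 large subunits, a medium (mu) subunit and a small (sigma) subunit. AP-2 works at the plasma membrane in clathrin-mediated endocytosis, and AP-1 carries cargo between the trans-Golgi network and endosomes. AP-3 sorts membrane proteins such as CD63 and LAMP proteins from endosomes to lysosomes and lysosome-related organelles, and its loss of function is known from forms of Hermansky-Pudlak syndrome.

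The cells received SEL120-34A, which blocks CDK8 and its paralog CDK19, the kinases of the Mediator complex, at 1.5 µM for 3 days, or the vehicle DMSO. LNCaP is sensitive to the antiandrogen enzalutamide, 22Rv1 is resistant and PC3 is insensitive to it. The labels name no transgene or genetic change in any line. LNCaP and 22Rv1 had 3 libraries per arm and PC3 had 1, which gave 14 libraries in 6 groups. The labels do not say whether replicates came from separate cultures, so p-values measure only the spread between these libraries. The libraries hold tags from the 3′ ends of transcripts (BRB-seq) with 246063 to 909176 counts each. All 22Rv1 libraries with SEL120-34A were shallower (246063 to 368778 counts) than those with DMSO (476455 to 777207). Levels are CPM (counts scaled by normalised library size) and group values are mean ± SD with n = 3. Changes are log2 fold changes from edgeR ± SE, SEL120-34A against DMSO unless stated otherwise. The SE is no edgeR output. It was computed as the size of the log2 fold change divided by the square root of the F statistic of its test. A gene was called at a Benjamini-Hochberg adjusted p under 0.05 over all 7086 genes. The lines were checked against their markers. KLK3, which encodes prostate-specific antigen, stood at 1218 ± 167 CPM in LNCaP with DMSO and at 20.4 ± 9.97 CPM in 22Rv1 with DMSO, and VIM reached 1262 and 1110 CPM in the PC3 libraries. In whole cultures, fewer cells with an mRNA and less of it per cell cannot be told apart.

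AP3S1 lies on the plus strand of chromosome 5 (GRCh38, chr5:115841592-115914081). ATG12, which encodes a ubiquitin-like protein of autophagosome formation, lies head to head with it on the minus strand (chr5:115828200-115841837). The start sites of their reference transcripts were 370 bases apart, and the gene models overlapped by 246 bases. The promoter windows are shown because the levels of both genes moved in 22Rv1. Each window runs from 250 bases before to 50 bases after the start site in RefSeq (GRCh38.p14), at chr5:115841685-115841984 on the plus strand for AP3S1 and at chr5:115841516-115841815 on the minus strand for ATG12. AP3S1 had 3 such windows and ATG12 had 1. For AP3S1 only the window at the start site of the reference transcript was searched. Capitals mark the 131 bases that the windows share, which read as reverse complements of each other.
AP3S1: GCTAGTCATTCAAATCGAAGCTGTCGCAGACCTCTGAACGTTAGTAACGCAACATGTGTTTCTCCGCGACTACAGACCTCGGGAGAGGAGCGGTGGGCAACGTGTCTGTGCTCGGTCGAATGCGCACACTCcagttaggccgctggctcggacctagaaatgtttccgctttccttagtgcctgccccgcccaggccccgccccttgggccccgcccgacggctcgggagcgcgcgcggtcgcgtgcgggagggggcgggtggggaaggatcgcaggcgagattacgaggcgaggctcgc
ATG12: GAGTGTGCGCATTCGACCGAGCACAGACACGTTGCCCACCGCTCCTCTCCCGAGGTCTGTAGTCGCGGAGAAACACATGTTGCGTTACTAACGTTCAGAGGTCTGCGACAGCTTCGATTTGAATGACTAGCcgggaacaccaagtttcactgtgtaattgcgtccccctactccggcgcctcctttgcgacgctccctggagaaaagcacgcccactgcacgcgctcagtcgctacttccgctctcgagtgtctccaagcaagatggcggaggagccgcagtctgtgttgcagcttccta
The AP3S1 window had a GC content of 64.7% and the ATG12 window 57.7%, against a median of 58.7% over 35116 promoter windows of this length. The GC box CCGCCC, searched on both strands, matched 4 times in the AP3S1 window and 0 times in the ATG12 window, and 45.0% of all windows held it. None of the AP3S1 matches lay in the shared stretch. Neither window held the exact strings CACGTG (an E-box form, 7.26% of all windows), CCAAT (34.6%), TATAAA (11.5%) or AGAACA (steroid receptor half-site, 14.8%). Both also lacked TGACTCA (AP-1 transcription factor site, 4.95%), TGACG (24.6%) and CCGGAA (an ETS site form, 17.2%). Other forms of the E-box and of the ETS site were not searched, so their absence is not shown. The matches describe letters and not bound sites.

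AP3S1 mRNA was higher in 22Rv1 cells with SEL120-34A than with DMSO and showed no such difference in LNCaP. The 22Rv1 DMSO libraries held 355, 314 and 312 CPM (181, 168 and 262 counts) and the SEL120-34A libraries 854, 1004 and 679 CPM (310, 234 and 238 counts). Every treated library was above every control library. The means were 327 ± 24.2 and 846 ± 163 CPM, a log2 fold change of 1.38 ± 0.15 (2.60-fold). With all libraries thinned to the smallest total, the log2 fold change was 1.33.

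In LNCaP, AP3S1 stood at 110, 107 and 133 CPM with DMSO and at 70.2, 130 and 122 CPM with SEL120-34A. The lowest treated library rested on 18 counts, and the arms overlapped. The means were 117 ± 14.0 and 108 ± 32.6 CPM, a log2 fold change of -0.05 ± 0.20. The difference between the effects (LNCaP minus 22Rv1) was -1.43 ± 0.25 on the log2 scale. The lines already differed in AP3S1 without the inhibitor, with a log2 difference of -1.47 ± 0.17 between LNCaP DMSO and 22Rv1 DMSO. PC3 lay between them, at 193 CPM with DMSO and 226 CPM with SEL120-34A (177 and 129 counts). Its log2 ratio was 0.23, with an exact binomial 95% interval of -0.11 to 0.57 that covers counting error only. The order of AP3S1 levels was thus 22Rv1 with SEL120-34A, 22Rv1 with DMSO, PC3 and LNCaP, and the arms within PC3 and within LNCaP were not separated beyond their error.

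**Figure D1:**
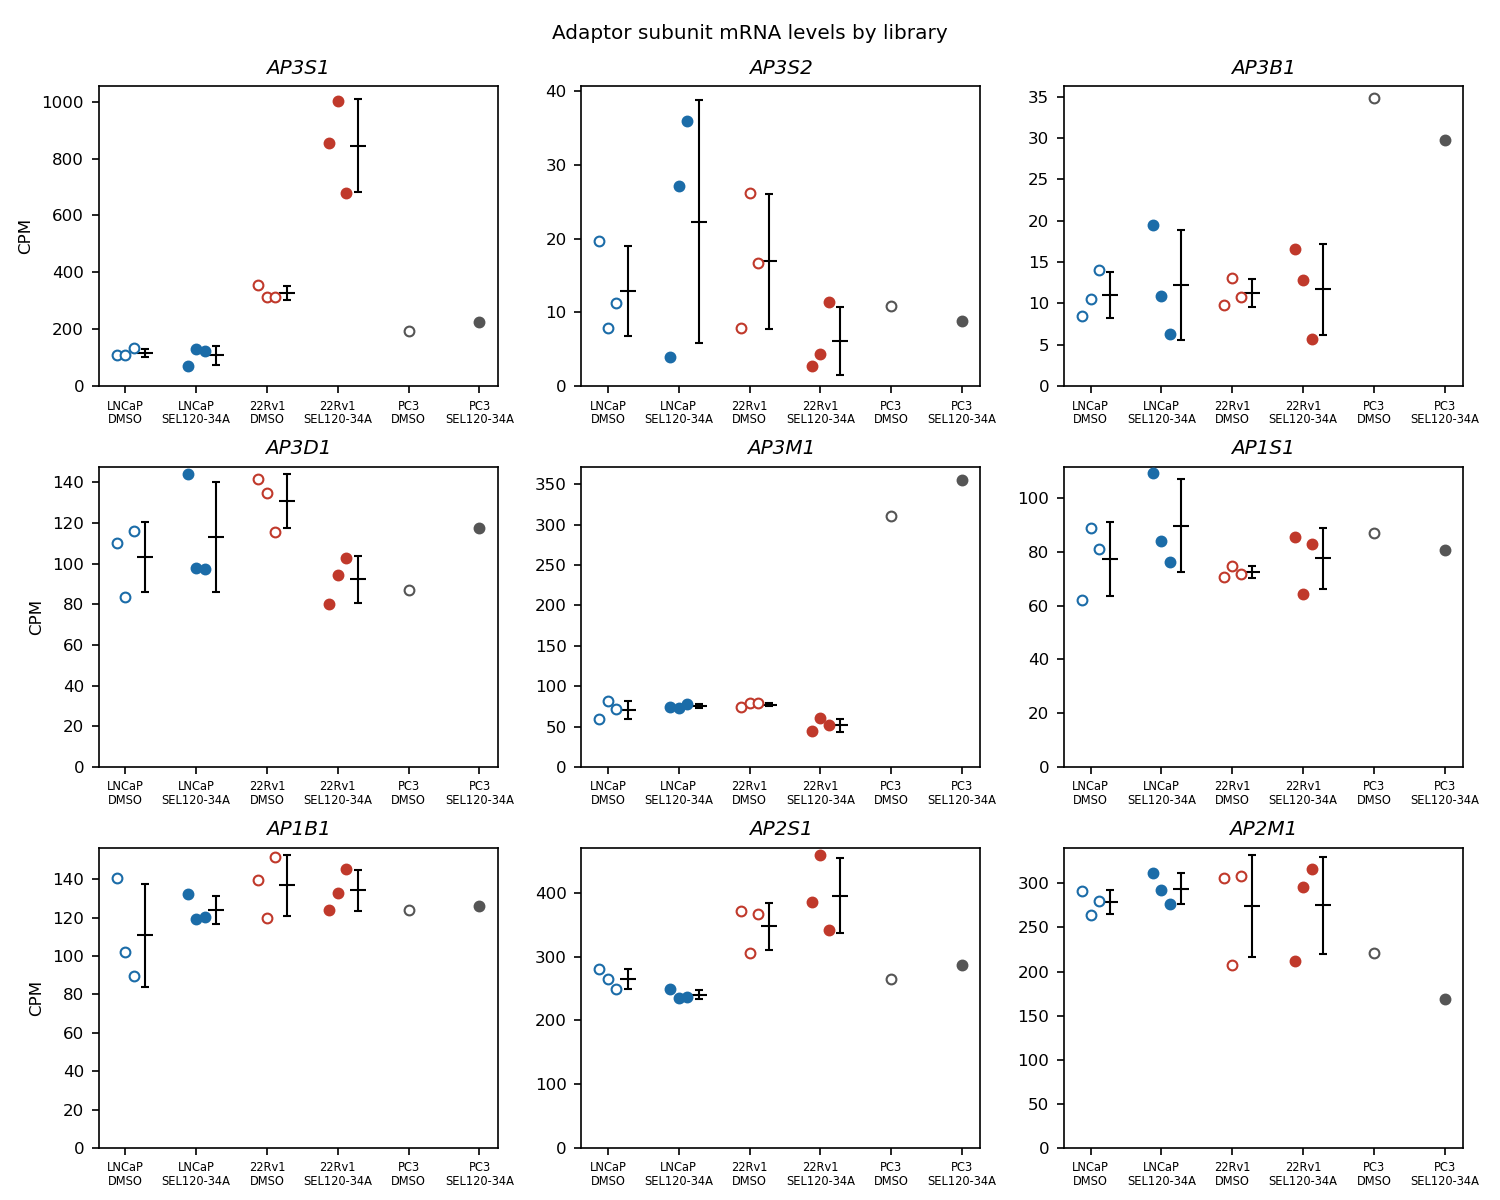
Levels of the 9 adaptor subunit mRNAs in CPM (y axis, each panel with its own scale from 0) in the 6 groups; open points are DMSO libraries, filled points SEL120-34A libraries, and bars the mean ± SD of 3 libraries. AP3S1 in the treated 22Rv1 libraries lies between 679 and 1004 CPM, above all other libraries, and AP3M1 lies at 311 and 356 CPM in PC3.

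AP3D1 and AP3M1 stood lower in the treated 22Rv1 libraries, but on few counts, and neither was called in the main fit. The treated 22Rv1 libraries held 22 to 36 counts of AP3D1 and 14 to 18 of AP3M1. With DMSO they held 72 to 97 and 38 to 66. AP3D1 (chr19:2100988-2164468, minus strand) encodes delta, a large subunit. It stood at 141, 135 and 116 CPM with DMSO and at 79.9, 94.4 and 103 CPM with SEL120-34A in 22Rv1, and the arms did not overlap. The means were 131 ± 13.3 and 92.3 ± 11.5 CPM, a log2 fold change of -0.48 ± 0.20. In LNCaP the means were 103 ± 17.1 and 113 ± 27.1 CPM with overlapping arms, a log2 fold change of 0.08 ± 0.20.

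AP3M1 (chr10:74120255-74150842, minus strand) encodes the mu subunit, which in adaptor complexes reads tyrosine-based sorting signals. In 22Rv1 it stood at 74.6, 78.6 and 78.7 CPM with DMSO and at 44.1, 60.1 and 51.3 CPM with SEL120-34A. These arms did not overlap either, and the log2 fold change was -0.59 ± 0.24. In LNCaP the means were 70.5 ± 11.0 and 75.1 ± 2.64 CPM, a log2 fold change of 0.15 ± 0.22. The PC3 libraries held more AP3M1 than all others, with 311 and 356 CPM (286 and 203 counts). The 3′ end of AP3M1 lies inside VCL, the gene of the cytoskeletal protein vinculin on the opposite strand, over 1109 bases, and the sources do not state whether reads were counted by strand. VCL was looked up for this position after the values were seen. It stood at 475 and 526 CPM in PC3, against group means of 41.3 to 53.2 CPM in the other lines, and its part in the AP3M1 level was not tested.

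AP3S2 (chr15:89830599-89894638, minus strand), the paralog of AP3S1, and AP3B1 (chr5:78000522-78294762, minus strand), which encodes the ubiquitous beta subunit, were near the limit of detection. Counts of 3, taken as the floor of detection, amounted to 12.2 CPM in the library with the fewest counts. AP3S2 had 1 to 17 counts per library in LNCaP and 22Rv1. It stood at 12.9 ± 6.12 and 22.3 ± 16.5 CPM in LNCaP (log2 fold change 0.88 ± 0.49, arms overlapping) and at 16.9 ± 9.18 and 6.15 ± 4.62 CPM in 22Rv1 (-1.38 ± 0.67, arms overlapping). AP3B1 had 2 to 10 counts in those 12 libraries and group means between 11.0 and 12.2 CPM. PC3 held 32 and 17 counts of AP3B1, which were 34.8 and 29.8 CPM. The readthrough gene ARPIN-AP3S2 and 6 rows of adaptor pseudogenes had 0 counts in all libraries.

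The ratio of AP3S1 counts to the summed counts of the other 4 AP-3 genes does not depend on library size. It was 1.52, 1.24 and 1.41 in 22Rv1 with DMSO and 5.96, 5.85 and 3.97 with SEL120-34A. The means were 1.39 ± 0.139 and 5.26 ± 1.12, and the arms did not overlap. In LNCaP the ratio was 0.557, 0.586 and 0.625 with DMSO and 0.290, 0.623 and 0.563 with SEL120-34A, with overlapping arms. In PC3 it was 0.434 and 0.442. There AP3M1, whose 3′ end lies inside VCL, gave 286 and 203 of the 408 and 292 counts of the other AP-3 genes. The PC3 ratio thus rests mostly on AP3M1, and the part of VCL in it was not tested. The ratio compares libraries and is no measure of protein composition, since transcripts may yield tags with different efficiency.

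**Figure D2:**
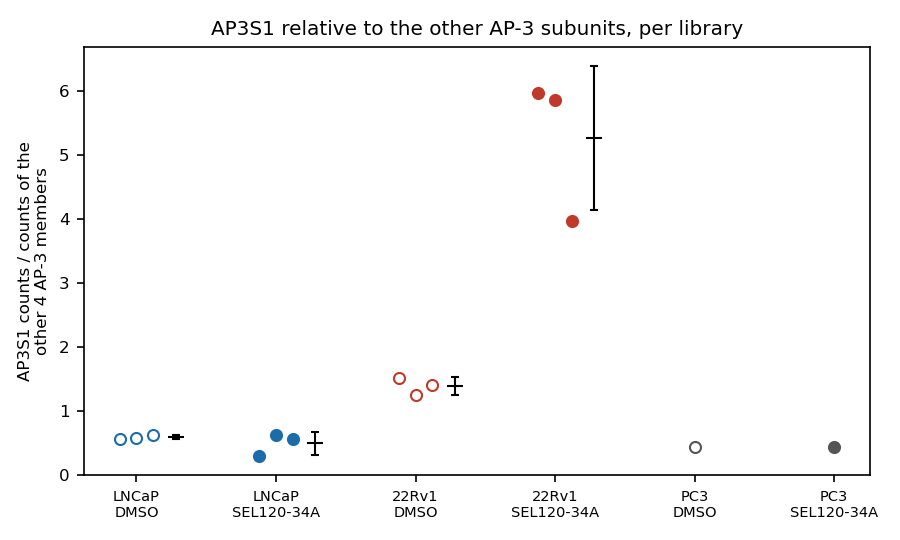
AP3S1 counts divided by the summed counts of AP3S2, AP3B1, AP3D1 and AP3M1 (y axis, ratio from 0) in each library by group; open points are DMSO, filled points SEL120-34A, and bars the mean ± SD of 3 libraries. The treated 22Rv1 libraries lie between 3.97 and 5.96 and all LNCaP and PC3 libraries below 1. In PC3 most of the counts divided by are those of AP3M1, whose 3′ end lies inside VCL.

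The AP-1 and AP-2 subunits showed smaller differences with SEL120-34A, and in both lines the arms of each of the 4 genes overlapped. AP1S1 (chr7:101154456-101161596, plus strand), the sigma subunit of AP-1, stood at 77.4 ± 13.9 and 89.7 ± 17.3 CPM in LNCaP (log2 fold change 0.23 ± 0.22) and at 72.4 ± 2.21 and 77.5 ± 11.5 CPM in 22Rv1 (0.14 ± 0.23). AP1B1 (chr22:29327680-29388583, minus strand), the large beta subunit, stood at 111 ± 26.8 and 124 ± 7.37 CPM in LNCaP (0.17 ± 0.19) and at 137 ± 16.0 and 134 ± 10.8 CPM in 22Rv1 (-0.03 ± 0.19). Both genes thus moved by about 1 SE or less. AP2M1 (chr3:184174689-184184214, plus strand), the cargo-binding mu subunit of AP-2, stood at 279 ± 13.6 and 294 ± 17.6 CPM in LNCaP and at 274 ± 57.6 and 275 ± 55.3 CPM in 22Rv1. Its log2 fold changes were 0.09 ± 0.16 and -0.0014 ± 0.16.

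AP2S1 (chr19:46838136-46850846, minus strand), the sigma subunit of AP-2, stood at 265 ± 15.7 and 241 ± 7.71 CPM in LNCaP (log2 fold change -0.11 ± 0.15) and at 348 ± 37.1 and 396 ± 59.1 CPM in 22Rv1 (0.18 ± 0.14). In PC3, AP1S1 had 87.1 and 80.7 CPM, AP1B1 124 and 126, and AP2S1 265 and 288. Their counting intervals for the ratio of the arms included no change. AP2M1 in PC3 had 221 and 168 CPM, and its log2 ratio of -0.39 had an interval of -0.76 to -0.04, with no replicate to set against it. The intervals of all 5 AP-3 genes in PC3 included no change.

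Over the members, 0 of the 8 genes in the model were called in LNCaP (0 at an unadjusted p under 0.05, and 0 with DESeq2 or limma), beside 2.77% of all genes. In 22Rv1, AP3S1 alone was called, beside 5.70% of all genes, and 3 members (AP3S1, AP3D1 and AP3M1) had arms that did not overlap, beside 23.0% of all genes. In LNCaP 0 members had arms that did not overlap, beside 19.4%. In the difference between the lines AP3S1 alone was called, beside 0.734% of all genes. Nothing is read from these counts, because the genes were chosen on the same contrasts. The median log2 fold change of the 8 genes was 0.12 in LNCaP and -0.01 in 22Rv1, and that of all genes 0.00076 and 0.0025.

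**Figure D3:**
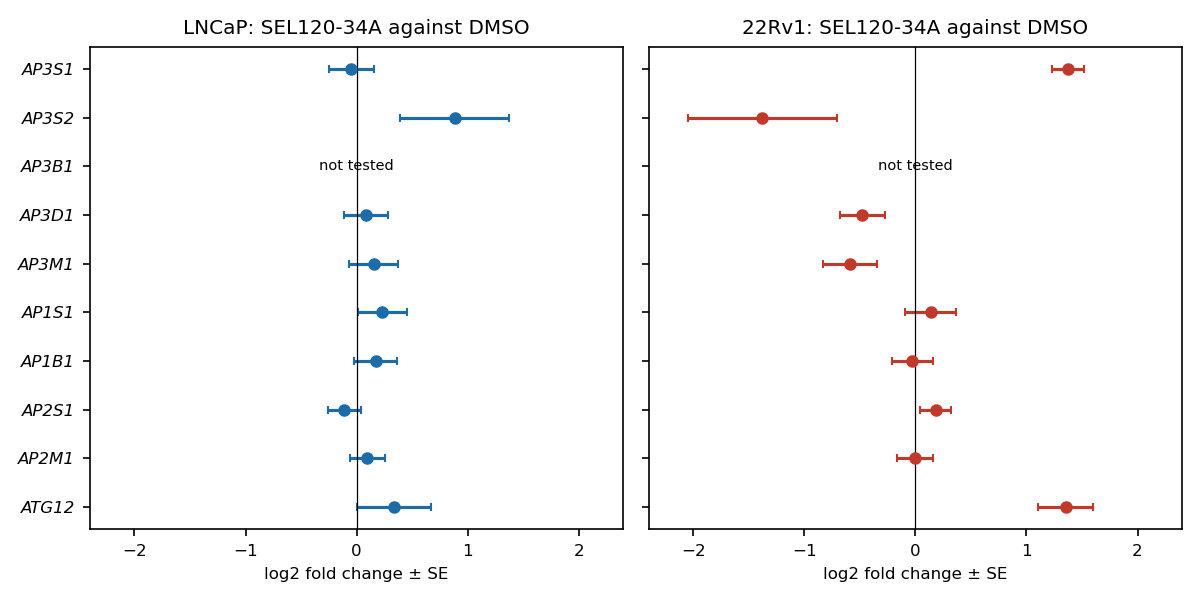
Log2 fold change ± SE of SEL120-34A against DMSO (x axis) for the adaptor subunits and ATG12 (y axis) in LNCaP (left) and 22Rv1 (right), with AP3B1 not tested. AP3S1 and ATG12 lie at 1.38 and 1.35 in 22Rv1, and no other gene shown lies above 0.18 there.

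Between the untreated lines, AP2S1 was the only one of the 9 subunits called besides AP3S1. The LNCaP DMSO libraries held 280, 264 and 249 CPM of AP2S1 and the 22Rv1 DMSO libraries 371, 305 and 367 CPM, with no overlap. The log2 difference (LNCaP minus 22Rv1) was -0.39 ± 0.14. It is a description, since all 9 genes were chosen with earlier results of the same libraries known. Leaving out LNCaP DMSO replicate 3 or 22Rv1 DMSO replicate 3 ended the call of AP2S1. It also ended with no filter and at equal depth. The log2 differences of AP3D1, AP1B1 and AP3S2 were -0.29 ± 0.18, -0.30 ± 0.17 and -0.30 ± 0.47, and none of these genes was called. Scaling to library totals in place of TMM called AP3D1 and AP1B1 too (-0.50 and -0.51). The log2 differences of AP3M1, AP1S1 and AP2M1 were -0.16 ± 0.20, 0.07 ± 0.20 and 0.02 ± 0.15, without a call. With AP3S1 left aside, 1 of 7 subunits was called, beside 49.0% of all genes, and nothing is read from this count. The DMSO arms of AP3S1 and AP2S1 did not overlap between the lines, beside 56.4% of all genes.

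ATG12, the head-to-head neighbour of AP3S1, rose in 22Rv1. It was taken for its position after results were known and is no adaptor gene. The 22Rv1 DMSO libraries held 31.4, 41.2 and 44.1 CPM (16, 22 and 37 counts) and the SEL120-34A libraries 113, 107 and 82.7 CPM (41, 25 and 29 counts). Every treated library was above every control library. The means were 38.9 ± 6.66 and 101 ± 16.1 CPM, a log2 fold change of 1.35 ± 0.25 (edgeR quasi-likelihood, adjusted p = 3.17e-04). Over 20 alternative analyses the adjusted p ranged from 1.11e-04 to 0.0155. In LNCaP the means were 25.9 ± 5.88 and 32.1 ± 6.09 CPM, and the log2 fold change was 0.34 ± 0.33 (adjusted p = 0.736). The difference between the lines was -1.01 ± 0.41 (adjusted p = 0.331) and so was not shown for ATG12. The log2 difference between the untreated lines was -0.65 ± 0.28 (adjusted p = 0.0531). It passed the threshold in 4 of 20 alternatives, with library totals (-0.86, adjusted p = 0.0105), with at least 10 counts in every library (adjusted p = 0.0190), and without LNCaP SEL120-34A replicate 1 or 22Rv1 DMSO replicate 1 (adjusted p = 0.0486 and 0.0334). PC3 held 47 and 24 counts (51.2 and 42.1 CPM), with a log2 ratio of -0.28 and a counting interval of -1.06 to 0.46. The 3′ ends of AP3S1 and ATG12, from which the tags come, lay 85881 bases apart.

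Within 2 Mb on each side of AP3S1, 9 other genes were in the model. Their log2 fold changes in 22Rv1 ran from -1.18 to 0.92 with a median of 0.39. Of the 9, 1 was called, a feature without a symbol (ENSG00000185641) at 0.48 (edgeR quasi-likelihood, adjusted p = 0.0149), and 4 had an unadjusted p under 0.05. Of all 7086 genes, 5.70% were called in 22Rv1 and 1351 had an unadjusted p under 0.05. Across the genome, 311 head-to-head pairs with start sites within 1000 bases had both genes in the model. In 24 of them at least 1 gene was called in 22Rv1, and in 3 both were, each pair in 1 direction, beside 5.70% of all genes called. No rate for other pairs of genes was computed, and nothing is read from these counts. Besides AP3S1 and ATG12, the pairs with both genes called were CENPN and CMC2 (0.78 and 1.00) and SEPTIN2 and HDLBP (-0.62 and -0.66).

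**Figure D4:**
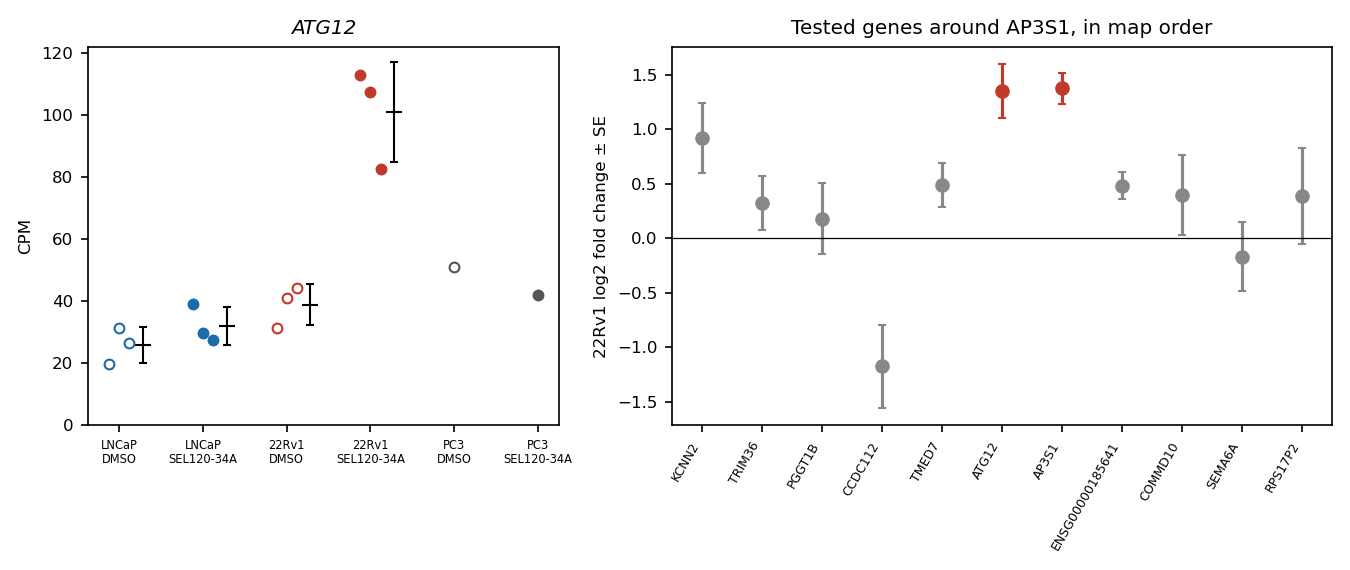
Left, ATG12 levels in CPM by group, with open points for DMSO, filled points for SEL120-34A and bars for the mean ± SD of 3 libraries. Right, the 22Rv1 log2 fold change ± SE (y axis) of the tested genes around AP3S1 in map order (x axis, not to scale); red marks AP3S1 (1.38) and ATG12 (1.35), and the other 9 genes lie between -1.18 and 0.92.

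Of the other subunits of AP-1 to AP-5, 12 of 19 were in the model and 0 were called in either line or in the difference. Of all genes, 2.77% were called in LNCaP, 5.70% in 22Rv1 and 0.734% in the difference. With so few genes, 0 calls are no result about the list. In LNCaP 4 of the 12 had an unadjusted p under 0.05, in 22Rv1 1 and in the difference 0, beside 956, 1351 and 811 of all 7086 genes. DESeq2 and limma called 0 of the 12 in each. The medians of the 12 were -0.13 in LNCaP and -0.06 in 22Rv1. AP1S2, a further sigma subunit named after its values were seen, stood at 8.21 ± 5.08 and 25.0 ± 5.41 CPM in 22Rv1 (log2 fold change 1.59 ± 0.51, edgeR adjusted p = 0.0527) and at 13.1 ± 4.55 and 29.0 ± 11.6 CPM in LNCaP (1.22 ± 0.44, adjusted p = 0.155). It therefore missed the threshold in both lines, with 2 to 15 counts per library. With DMSO, the lines differed in 3 of the 12, beside 49.0% of all genes called. AP3B2, the beta subunit of the neuronal form of AP-3, stood at 23.0 ± 6.64 CPM in 22Rv1 and had at most 1 count per library in LNCaP (adjusted p = 7.91e-06). AP3M2, the other mu subunit of AP-3, was lower in LNCaP (log2 difference -1.72 ± 0.49, adjusted p = 0.00328), and AP1G2, a gamma subunit of AP-1, was higher (1.26 ± 0.35, adjusted p = 0.00294). With limma-trend AP3M2 was not called (-1.16, adjusted p = 0.0681).

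Of 33 genes for clathrin and its endocytic and Golgi partners, 22 were in the model. None was called in LNCaP, in 22Rv1 or in the difference by edgeR, DESeq2 or limma, beside 2.77%, 5.70% and 0.734% of all genes with edgeR. An unadjusted p under 0.05 was found for 2, 2 and 4, beside 956, 1351 and 811 of all 7086 genes. With so few genes, 0 calls are no result about this list either. The medians were 0.03 in LNCaP and -0.14 in 22Rv1. With DMSO, 2 were higher and 4 lower in LNCaP than in 22Rv1, beside 49.0% of all genes called. EPN3 and EPN1, epsins that help bend the membrane, were higher, with log2 differences of 1.53 ± 0.26 and 0.74 ± 0.16 (edgeR adjusted p = 4.95e-06 and 1.39e-04). HIP1, which links clathrin coats to actin, and REPS1 were lower, with log2 differences of -1.73 ± 0.46 and -0.80 ± 0.25 (adjusted p = 0.00193 and 0.00793). At equal depth the calls of REPS1 and EPN1 ended (adjusted p = 0.449 and 0.108), and limma-trend did not call REPS1 (adjusted p = 0.0727). DNAJC6, an auxilin that uncoats vesicles, had 0 counts in all LNCaP DMSO libraries and 20.5 ± 8.35 CPM in 22Rv1 (adjusted p = 1.09e-06), and FCHO1, an early coat factor, had 1 to 2 counts against 22.2 ± 4.68 CPM (adjusted p = 3.65e-05).

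The AP-3 pathway list held cargo and partners of AP-3 (BLOC-1, HPS and HOPS subunits, ARF1 and lysosomal membrane proteins), 17 of 27 in the model. In LNCaP 2 of the 17 rose and none fell, beside 2.77% of all genes called. LAMP2, a lysosomal membrane glycoprotein, stood at 125 ± 13.8 CPM with DMSO and 210 ± 49.0 CPM with SEL120-34A (log2 fold change 0.75 ± 0.18, edgeR adjusted p = 0.0134). CD63, a tetraspanin of late endosomes and a cargo of AP-3, stood at 365 ± 28.4 and 506 ± 40.7 CPM (0.49 ± 0.13, adjusted p = 0.0287). In neither gene did the arms overlap. In 22Rv1 CD63 was the 1 member that rose, from 625 ± 26.1 to 851 ± 114 CPM (0.45 ± 0.12, adjusted p = 0.0242), again without overlap, and none fell, beside 5.70% of all genes called. LAMP2 in 22Rv1 stood at 33.6 ± 6.70 and 53.3 ± 8.20 CPM, without overlap (0.70 ± 0.30, adjusted p = 0.168). The medians of the list were 0.27 in LNCaP and 0.09 in 22Rv1.

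The CD63 call ended in LNCaP without LNCaP DMSO replicate 2 or 3 or LNCaP SEL120-34A replicate 1 or 2, and in 22Rv1 without any of the DMSO libraries or SEL120-34A replicate 2. The LAMP2 call in LNCaP ended without the same 4 libraries. In these fits the adjusted p of CD63 lay between 0.0636 and 0.180 and that of LAMP2 between 0.0586 and 0.241. With no filter and with limma-trend the calls ended too. The adjusted p were 0.277 and 0.0850 for CD63 in LNCaP, 0.207 and 0.0638 for CD63 in 22Rv1, and 0.0558 and 0.189 for LAMP2 in LNCaP. Library totals ended the CD63 call in LNCaP and 22Rv1 (adjusted p = 0.0662 and 0.121), and fitting each line alone ended it in 22Rv1 (adjusted p = 0.0517). In the difference between the lines 0 of the 17 were called (1 at an unadjusted p under 0.05, 0 with DESeq2 or limma), beside 0.734% of all genes. No unequal response of LAMP2 or CD63 was thus shown. In the DMSO arms 4 were higher and 5 lower in LNCaP than in 22Rv1, a share near the 49.0% of all genes called and so no result about the list. LAMP2 and SCARB2, another lysosomal membrane protein, were higher, with log2 differences of 1.94 ± 0.22 and 1.32 ± 0.18 (adjusted p = 2.08e-09 and 8.42e-08), as were BLOC1S6 and BLOC1S4 of BLOC-1, with 1.10 ± 0.26 and 1.03 ± 0.26 (adjusted p = 6.83e-04 and 0.00118). CD63 and ARF1, the GTPase that recruits AP-1 and AP-3 to membranes, were lower, with log2 differences of -0.77 ± 0.13 and -0.54 ± 0.12 (adjusted p = 2.85e-06 and 2.83e-04).

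COPI, a coat related to the adaptor complexes that works at the Golgi, had 7 of 9 subunit genes in the model. In LNCaP and in the difference 0 were called (0 and 1 at an unadjusted p under 0.05, 0 with DESeq2 or limma), beside 2.77% and 0.734% of all genes. In 22Rv1 1 of the 7 was called, beside 5.70% of all genes: ARCN1, the delta subunit, fell from 94.7 ± 20.9 to 49.2 ± 24.2 CPM (log2 fold change -0.86 ± 0.26, edgeR adjusted p = 0.0428), and the lowest treated library held 5 counts. Without that library, 22Rv1 SEL120-34A replicate 2, the log2 fold change was -0.59 (adjusted p = 0.291). The call also ended without 22Rv1 SEL120-34A replicate 3 or 22Rv1 DMSO replicate 2 or 3 (adjusted p = 0.0630, 0.0929 and 0.165), and DESeq2 and limma called 0 of the 7. At equal depth the ARCN1 call ended as well (adjusted p = 0.0860). The medians of the list were -0.03 in LNCaP and -0.09 in 22Rv1. In the DMSO arms 2 of the 7 were called, beside 49.0% of all genes. COPA and COPG1 were lower in LNCaP, with log2 differences of -0.90 ± 0.21 and -0.54 ± 0.19 (adjusted p = 3.69e-04 and 0.0147). The COPG1 call ended without LNCaP DMSO replicate 1 (adjusted p = 0.101) or 22Rv1 DMSO replicate 3 (adjusted p = 0.176). DESeq2 (Wald test) and limma-trend did not call COPG1 either (adjusted p = 0.0661 and 0.0913). The median log2 difference between the DMSO arms was -0.01 for the other adaptor subunits, -0.28 for the clathrin list, 0.18 for the AP-3 pathway and -0.27 for COPI, against -0.03 for all genes.

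The genes whose profile was most like that of AP3S1 were found over the 12 LNCaP and 22Rv1 libraries. Likeness was the root mean square distance between log2 CPM profiles, each gene centred on its own mean, among 3886 genes with a mean of at least 20 counts. The nearest were DAZAP2 (0.30), ALDH3A2 (0.34), SERPINE2 (0.36), FAM111B (0.37) and TEX264 (0.37), against a median distance of 1.27 over all compared genes. Their log2 differences between LNCaP DMSO and 22Rv1 DMSO ran from -2.41 to -0.92 and their log2 fold changes in 22Rv1 from 0.84 to 1.22, both of which the choice by profile largely sets. In LNCaP their log2 fold changes ran from -0.29 to 0.87, the highest being SERPINE2. They shared the libraries and the large contrast between the lines with AP3S1, and no p was attached to the distances.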

How the data were processed

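The data were 14 BRB-seq libraries of LNCaP, 22Rv1 and PC3 cells. Per the labels, the authors aligned and counted reads with STARsolo on GRCh38.p13 and deposited raw counts for 62703 genes. They also deposited log2 CPM values for 9638 genes, which TMM factors over all libraries with a prior count of 2 gave to within 5e-14. Whether molecular identifiers were collapsed or strand was used was not given in the sources used here, so intervals and floors cover counting error only. Groups came from the labels.

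Counts of 12 libraries (LNCaP and 22Rv1) were fitted in edgeR 4.0.16 (R 4.3.3) with a mean per group, TMM, filterByExpr, the quasi-likelihood F-test and Benjamini-Hochberg adjustment over 7086 genes, with 8 residual degrees of freedom. PC3, with 1 library per arm, was not tested. Contrasts were SEL120-34A against DMSO per line, their difference, and LNCaP DMSO against 22Rv1 DMSO. Replicates differed by more than counting error (chi-square per degree of freedom 1.43 to 3.02). Named genes were the 9 subunits, up to 6 called genes per list by adjusted p, and the 5 nearest profiles. The members and the 4 gene lists were chosen with earlier results of these data known. Coordinates came from GENCODE release 44. The scripts were tested on simulated data. The 21 alternatives included DESeq2 1.42.0, limma 3.58.1 and each library left out.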

Additional observations from a re-analysis of the deposited data

Results flagged for a closer look

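The effect of SEL120-34A on AP3S1 differed between the lines by -1.43 ± 0.25 on the log2 scale (LNCaP minus 22Rv1), which drew attention as a difference between groups under the same treatment. The log2 fold changes were -0.05 ± 0.20 in LNCaP and 1.38 ± 0.15 in 22Rv1. The value is a description, since AP3S1 was chosen on this contrast. It lay between -1.58 and -1.24 in all 20 alternative analyses. The treated 22Rv1 libraries were the shallowest of their line, and at equal depth the difference was -1.38.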

How the results depend on the processing

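The log2 fold change of AP3S1 in 22Rv1 ran from 1.22 to 1.53 over 21 alternatives, a description on the libraries used to choose it. In the difference between the lines, limma-trend fitted to the deposited log2 CPM called 0 members in place of 1. ATG12 in 22Rv1 stayed called in all 20. For 22Rv1, requiring 10 counts in every library called 2 members, adding AP3M1 (-0.67). Between the untreated lines, library totals called 4 members, adding AP3D1 and AP1B1 (-0.50 and -0.51), no filter and equal depth called 1 each, and leaving out 1 library gave 1 to 3.

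Of the listed genes, 2 were called in LNCaP. Library totals gave 1, no filter 0 and limma-trend 0, and leaving out 1 library gave 0 to 3. In 22Rv1, where 2 were called, library totals, no filter, the minimum of 10 counts, each line alone, DESeq2 and equal depth gave 1 each and limma-trend 0, and leaving out 1 library gave 0 to 2. Between the untreated lines 20 were called, 8 with the minimum of 10 counts and 10 at equal depth.

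Of all genes, 196 were called in LNCaP, 122 with the minimum of 10 counts, 101 with DESeq2, 41 with limma-trend and 96 at equal depth, and 87 to 239 without 1 library. In 22Rv1 404 were called, 260 without a filter, 255 with DESeq2, 201 with limma-trend, and 158 to 446 without 1 library. In the difference 52 were called, 29 with the minimum of 10 counts, 5 with limma-trend, 29 at equal depth, and 24 to 57 without 1 library. Between the untreated lines 3473 were called, 1503 with the minimum of 10 counts and 2048 at equal depth. The minimum of 10 counts tests fewer genes and equal depth discards counts; the cause of the other changes was not tested.

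Equal depth and the alternatives for ATG12 were added after the data were seen. With the replicate number as a replicate block, the called genes numbered 240 in LNCaP, 450 in 22Rv1 and 68 in the difference, and the members called stayed at 0, 1 and 1. The main fit did not use the numbers as pairs. The correlations of same-numbered libraries were between 0.0016 and 0.205 in LNCaP and between -0.043 and 0.023 in 22Rv1. Those of unlike-numbered libraries were between -0.240 and 0.051 in LNCaP and between -0.076 and 0.092 in 22Rv1. In LNCaP, replicates 1 and 3 (0.185 and 0.205) lay above every unlike-numbered pair. Whether equal numbers mark a shared batch was not tested.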
